A study of Homo sapiens with 24 samples.

Results

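The regions described are 305 sites of changed histone acetylation that lay away from the chromatin-bound histone chaperone Rbap46. They were selected on measured values, namely a false discovery rate (FDR) under 0.1 for H3K9ac between shControl and shHAT1 cells, and no Rbap46 site with a level above input within 1 kb on the same chromosome. They made up 13.9% of the 2191 H3K9ac sites in the authors' deposited table. The other 1886 sites (86.1%), which had an Rbap46 site within 1 kb, served for comparison. The first are called Rbap46-distant sites below and the second Rbap46-near sites.

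All libraries were of hTert-HME1, an established line of human breast epithelium made immortal by telomerase (hTERT). H3K9ac chromatin immunoprecipitation followed by sequencing (ChIP-seq) had 3 libraries of shControl cells, which carry a control hairpin, and 3 libraries of shHAT1 cells, whose short hairpin RNA targets HAT1. The labels call the former shCon2, shCon3 and shCon5 and the latter A7, B6 and C5, without saying whether these are clones or cultures. Rbap46 and input chromatin had 2 libraries each and came from cells labelled untreated, so Rbap46 binding after HAT1 depletion was not measured in these tables. How far HAT1 itself was depleted is not given in them either.

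HAT1 is a histone acetyltransferase that acetylates newly made histone H4, and Rbap46 (RBBP7) is a histone-binding WD-repeat protein that joins HAT1 in its complex. Rbap46 also belongs to other chromatin complexes, among them histone deacetylase complexes. H3K9ac, an acetyl group on a lysine in the tail of histone H3, marks active promoters and enhancers and is placed mainly by other acetyltransferases, such as GCN5 and PCAF.

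Values are group means on the log2 scale, with no value per library, so no spread between replicates, no depth and no test of the authors' groups can be given here. Of about 12048 H3K9ac sites tested, a number inferred from the relation of FDR to p-value, 18.2% passed an FDR of 0.1. Of about 80832 sites tested for Rbap46, 37.6% were listed above input, with a log2 fold of at least 0.33. The highest FDR listed for Rbap46 was 0.05, and only listed sites counted for the distance. A site counted as Rbap46-distant can thus still carry Rbap46 that did not pass the authors' limit. H3K9ac sites that did not change were not analysed here. Positions are in hg19, the build named in the submitters' processing notes. No annotation or genome of that build was used, so sites are given by position and not by gene or sequence.

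The distance rule drew a line through a continuous range. The 3 Rbap46-distant sites closest to the limit had distances of 1001 bp (chromosome 3, 185653983 to 185654483), 1017 bp (chromosome 5, 90677603 to 90678103) and 1051 bp (chromosome 1, 8937245 to 8937745). Their shHAT1 minus shControl differences in the authors' deposited table were -1.22, -1.49 and -1.02. Just inside the limit lay sites at 996 bp (chromosome 2, 201727523 to 201728023), 982 bp (chromosome 1, 10093072 to 10093572) and 973 bp (chromosome 2, 43451440 to 43451940), with differences of -1.26, -0.65 and -0.59 in the authors' deposited table. Most Rbap46-near sites were not close to the limit, since 1668 of them overlapped an Rbap46 site and 218 did not.

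Rbap46-distant sites carried less H3K9ac in control cells than Rbap46-near sites. Their shControl level ranged from 7.02 to 11.73, with a median of 8.71 and quartiles of 8.33 and 9.30. The Rbap46-near sites ranged from 7.03 to 11.92, with a median of 9.37 and quartiles of 8.83 and 9.81. The difference of the medians was -0.66 on the log2 scale, or 1.58-fold higher concentration at the Rbap46-near sites, although both ranges overlapped almost fully. It was -0.33 when Rbap46 sites had to have a log2 fold over input of at least 1, which made 792 sites Rbap46-distant. The same order of medians was seen on 19 of the 20 chromosomes with at least 5 Rbap46-distant sites. The exception was chromosome 22, where the medians were 9.62 for Rbap46-distant and 9.40 for Rbap46-near sites. Of its 12 Rbap46-distant sites, 7 lay between 46 and 47 Mb, with levels from 8.72 to 11.73. The others had levels of 7.50, 8.15, 8.23, 8.64 and 9.97. Sites are not replicates, and level bears on the FDR that chose them, so the difference in level between both kinds of site was not tested.

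In shHAT1 cells the gap between both kinds of site was larger. The median shHAT1 level was 7.85 at Rbap46-distant sites, with a range from 4.12 to 11.02, and 8.59 at Rbap46-near sites. H3K9ac was lower in shHAT1 cells at 299 of the 305 Rbap46-distant sites (98.0%) and at 1875 of the 1886 Rbap46-near sites (99.4%). The median difference, shHAT1 minus shControl, was -0.92 with quartiles of -1.09 and -0.75 at Rbap46-distant sites, which is a 1.89-fold loss. At Rbap46-near sites it was -0.76 with quartiles of -0.91 and -0.64, a 1.69-fold loss. The gap of -0.16 between these medians was -0.07 with the limit on Rbap46 fold. The Rbap46-distant median was the more negative on all 20 chromosomes with at least 5 such sites. With fewer sites, it was -0.68 against -0.70 at Rbap46-near sites on chromosome 18 (4 sites). On chromosome 21 (2 sites) it was -1.09 against -0.67. These differences belong to the contrast that chose the sites and are given as a description.

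**Figure D1:**
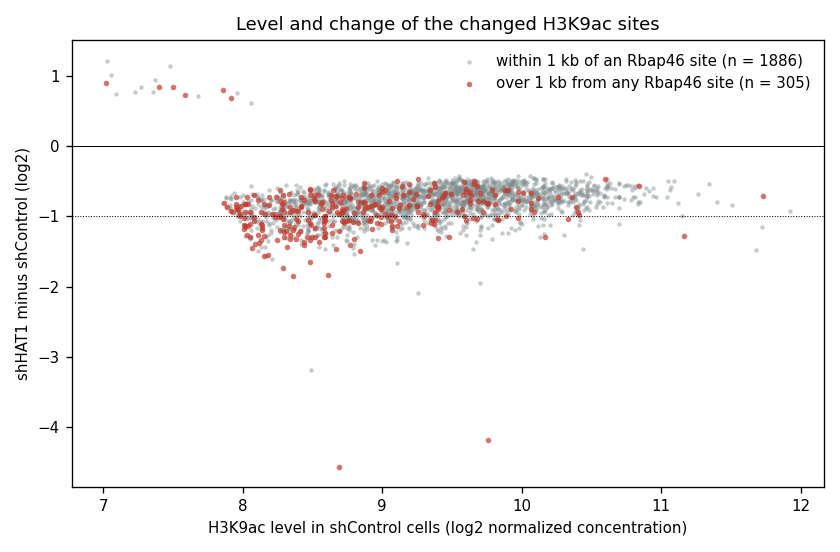
H3K9ac level in shControl cells (x axis, log2 normalized concentration, group mean) against the shHAT1 minus shControl difference (y axis, log2) for 305 Rbap46-distant sites (red) and 1886 Rbap46-near sites (grey); the solid line marks no difference and the dotted line a 2-fold loss. Red points lie toward lower level and larger loss than grey points, with wide overlap. Above the solid line lie 6 red points, and 2 red sites lie at -4.57 and -4.19, below the lowest grey site at -3.18.

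Large losses were more frequent among the Rbap46-distant sites. Of all H3K9ac sites tested, 3.34% passed the FDR limit with at least a 2-fold loss. Among the 2191 sites that passed the limit, 18.3% had such a loss. It was found at 114 of the 305 Rbap46-distant sites (37.4%) and 288 of the 1886 Rbap46-near sites (15.3%). Rbap46-distant sites thus supplied 28.4% of the 402 sites with at least a 2-fold loss. The stricter FDR of 0.05 was passed by 6.60% of the sites tested and by 36.3% of the 2191. It was met by similar shares of both kinds, namely 114 Rbap46-distant sites (37.4%) and 681 Rbap46-near sites (36.1%). The median FDR was 0.0588 and 0.0583.

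Loss was larger at sites of lower shControl level, so the H3K9ac sites were divided into quartiles of that level. Rbap46-distant sites formed 28.6% of the lowest quartile (159 sites at 7.02 to 8.74) and 12.4% of the second. They formed 9.06% of the third and 5.34% of the highest quartile (29 sites at 9.77 to 11.92). The smallest loss that passed was -0.50 in the lowest quartile and -0.40 in the highest. Within the quartiles, from lowest to highest, the median difference at Rbap46-distant sites was -0.97, -0.87, -0.81 and -0.81. At Rbap46-near sites it was -0.86, -0.79, -0.71 and -0.70. The distance between the medians stayed between -0.08 and -0.11 in the quartiles, against -0.16 without them. A 2-fold loss was reached by 47.2% of Rbap46-distant and 30.6% of Rbap46-near sites in the lowest quartile, and by 20.7% and 5.84% in the highest.

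The lower level set in close to Rbap46 and did not go on falling with distance. Sites that overlapped Rbap46 had a median shControl level of 9.41, and sites 1 bp to 1 kb away had 9.02. From there the median was 8.63 at over 1 to 2 kb (39 sites), 8.92 at over 2 to 5 kb (41 sites) and 8.68 at over 5 to 10 kb (35 sites). Farther out it was 8.64 at over 10 to 50 kb (67 sites), 9.26 at over 50 to 100 kb (31 sites), 8.58 at over 100 kb to 1 Mb (83 sites) and 8.87 at over 1 Mb (9 sites). The median difference went from -0.75 at overlapping sites to -0.84 up to 1 kb and -0.94 at over 1 to 2 kb. Beyond 2 kb it lay between -0.81 and -1.01 with no order by distance.

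**Figure D2:**
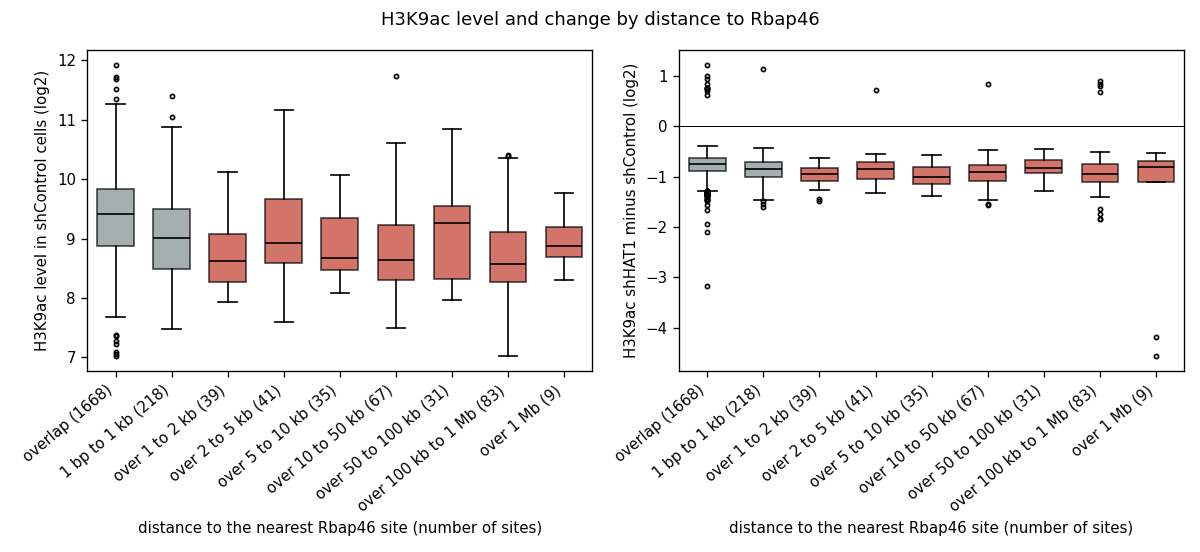
H3K9ac level in shControl cells (left, log2) and shHAT1 minus shControl difference (right, log2) by distance to the nearest Rbap46 site, with the number of sites in parentheses; boxes give quartiles and median, whiskers reach the last site within 1.5 box lengths, and points are the sites beyond. Grey boxes are Rbap46-near sites and red boxes Rbap46-distant sites, and the red medians of level all lie below the 9.41 of overlapping sites. The red median at over 50 to 100 kb, 9.26, lies above the 9.02 of the grey box at 1 bp to 1 kb.

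The 2 largest losses of the whole table were Rbap46-distant neighbours on chromosome 6, with 176 bp between them. The first (66970079 to 66970949) went from 8.69 in shControl to 4.12 in shHAT1, and the second (66969402 to 66969902) from 9.76 to 5.57, in the authors' deposited table. Their differences of -4.57 (FDR 0.0172) and -4.19 (FDR 0.0227) were followed by -3.18 at an Rbap46-near site and by -1.85 as the next Rbap46-distant value. The pair lay in a stretch of 3.73 Mb (64345971 to 68072869) without an Rbap46 site, at 1102 and 1103 kb from the nearest one. Group means do not show whether all 3 shHAT1 libraries were low there. The authors' deposited table gave the value of -1.85 for 120220125 to 120221089 of chromosome 8, with levels of 8.36 and 6.51 (FDR 0.0204). It gave 8.61 and 6.77 for 186528693 to 186529608 of chromosome 1 (difference -1.84, FDR 0.00813), and 8.29 and 6.55 for 109924477 to 109924977 of chromosome 13 (difference -1.74, FDR 0.0446). Apart from the pair on chromosome 6, these losses formed the end of a continuous range.

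The 3 lowest FDR values among Rbap46-distant sites came from sites whose losses lay beyond the Rbap46-distant lower quartile of -1.09. The authors' deposited table gave 8.77 in shControl, 7.36 in shHAT1 and an FDR of 0.000783 for chromosome 1, 186649080 to 186649580. It lay 119 kb from the chromosome 1 location with the difference of -1.84, and 304 kb from the nearest Rbap46 site. A neighbour 172 bp away (186649753 to 186650253), chosen after its values were seen, had 9.48 and 8.57 (difference -0.91, FDR 0.0204) in the authors' deposited table. Among Rbap46-distant sites the next FDR was 0.00392 on chromosome 17 (41438584 to 41439084, levels 8.33 and 7.19) in the authors' deposited table. It was followed by 0.00475 on chromosome 16 (87900883 to 87901383, levels 9.11 and 7.97), from the same deposited table. These last sites were closer to Rbap46, at 6.25 kb and 1.31 kb, and each had an Rbap46-near H3K9ac site as its nearest neighbour.

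Not all Rbap46-distant sites were weak. Their highest shControl level in the authors' deposited table, 11.73, belonged to 1314 bp of chromosome 22 (46464986 to 46466299), with 11.02 in shHAT1 cells (FDR 0.0942). High level and large loss came together on chromosome 12 (52540647 to 52541147), at 11.16 and 9.88 (difference -1.28, FDR 0.0292, authors' deposited table). Another stretch of chromosome 12 (66218784 to 66219284) had 10.84 and 10.27 (difference -0.57, FDR 0.0791, authors' deposited table). It lay 83.5 kb from Rbap46.

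Only 6 Rbap46-distant sites (1.97%) had higher H3K9ac in shHAT1 cells, against 11 Rbap46-near sites (0.583%). In the whole comparison 0.141% of the sites tested were called in this direction, and 0.776% of the 2191 sites that passed the FDR limit. The 6 sites were 35.3% of the 17 higher sites, while Rbap46-distant sites were 13.9% of all. With so few sites the shares rest on single sites. The 6 were on chromosome 1 (13910657 to 13911157, 7.02 to 7.92), chromosome 22 (31503150 to 31503650, 7.50 to 8.35) and chromosome 10 (116164164 to 116164664, 7.40 to 8.24) in the authors' deposited table. The others were on chromosome 9 (4297700 to 4298200, 7.86 to 8.66), chromosome 6 (114180669 to 114181169, 7.59 to 8.32) and again chromosome 10 (129705352 to 129705852, 7.92 to 8.60) in the authors' deposited table.

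The 6 higher sites shared a low starting level and the smallest width of 501 bp, a width that 246 of the 305 Rbap46-distant sites had. Their shControl levels, up to 7.92, barely reached the lowest level of 7.87 among the 299 Rbap46-distant sites that lost H3K9ac. Choosing sites by an increase itself favours a low shControl level. In shHAT1 cells the 6 had levels of 7.92 to 8.66, above the Rbap46-distant median of 7.85. The 11 Rbap46-near higher sites also started low, at 7.03 to 8.06. The first 3 of the 6 had the lowest shControl levels of all Rbap46-distant sites. The increases of the 6, from 0.68 to 0.90, lay inside the 0.62 to 1.22 of the Rbap46-near higher sites. Of the 6, 4 were over 100 kb from Rbap46, compared with 88 of the 299 lower sites (29.4%). The chromosome 6 site was 2.21 kb from Rbap46 and 1040 bp from a higher Rbap46-near site (114179128 to 114179628, 7.48 to 8.62 in the authors' deposited table), which was picked with its values known. That pair lay on both sides of the distance limit and moved alike.

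**Figure D3:**
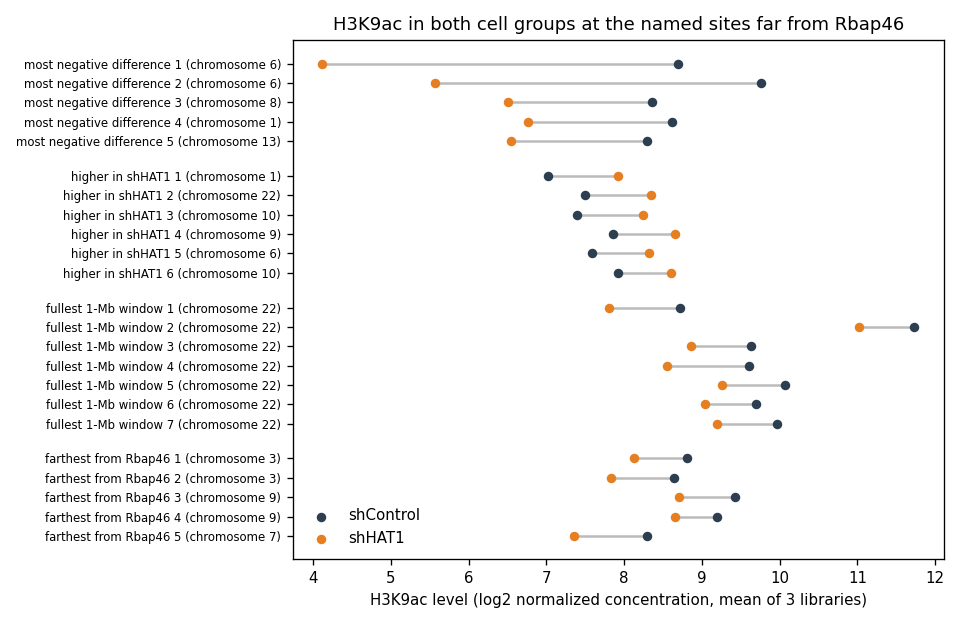
H3K9ac level (x axis, log2 normalized concentration, group mean of 3 libraries) in shControl cells (dark) and shHAT1 cells (orange) at Rbap46-distant sites: the 5 with the most negative difference, the 6 higher in shHAT1, the 7 of the fullest 1-Mb window and the 5 farthest from Rbap46. Grey lines join the values of a site; the 6 higher sites start at 7.02 to 7.92, below every other site shown.

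Most sites had the smallest width of the table, 501 bp. Wider sites numbered 59 of the 305 Rbap46-distant sites (19.3%) and 413 of the 1886 Rbap46-near sites (21.9%), with median widths of 958 and 942 bp. The direction of this difference depended on the distance limit and on level. In the lowest quartile of shControl level 19.5% of Rbap46-distant and 9.85% of Rbap46-near sites were wider, while in the highest it was 20.7% and 31.9%. The share was 2.34 percentage points higher at the sites over 10 kb from Rbap46 than at all others, whereas the 1 kb limit gave -2.55. Within the zones of distance it was uneven, with 2 of 39 sites at over 1 to 2 kb (5.13%) but 27 of 67 at over 10 to 50 kb (40.3%). Those 27 were spread over 15 chromosomes and measured 835 to 1314 bp. Wider and narrow Rbap46-distant sites had the same median level of 8.71, with median differences of -0.98 and -0.90.

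The widest Rbap46-distant site was on chromosome 7 (28218924 to 28220854), with 1931 bp, the widest of the whole table. Its shHAT1 level was 8.35, with a difference of -0.65 and an FDR of 0.0636, as the authors' deposited table gives them. That table also gives 9.82 and 8.78 (FDR 0.0398) for 1692 bp of chromosome 1 (151167198 to 151168889), and 8.93 and 7.75 (FDR 0.0391) for 1391 bp of chromosome 10 (42391583 to 42392973). The chromosome 10 site was the only one of the 305 with an Rbap46 site below input within 1 kb. It lay 935 bp away, and the authors' deposited table gives 6.17 for Rbap46 and 6.86 for input there (FDR 0.0142).

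Rbap46-distant sites occurred on 22 of the 23 chromosomes. Among the 21 chromosomes with at least 20 H3K9ac sites, the share was lowest on chromosome 4 (0 of 30 sites), chromosome 16 (12 of 214, 5.61%) and chromosome 17 (9 of 128, 7.03%). It was highest on chromosome 14 (11 of 29, 37.9%), chromosome 22 (12 of 45, 26.7%) and chromosome 10 (14 of 68, 20.6%). The share on chromosome 22 rested largely on 46 to 47 Mb, which held 7 of the 12 Rbap46-distant and 9 of the 45 changed sites. Chromosome 13 had only 11 changed sites, of which 8 (72.7%) were Rbap46-distant, 4 of them within 7.29 kb. Chromosomes 13, 22 and 14 held few Rbap46 sites above input in all, with 435, 754 and 816, but chromosome 4 had 1012 and chromosome 16 had 1298. Counts were similarly low on chromosomes 21 (353), 18 (430), X (748) and 20 (822). There 2 of 17, 4 of 20, 7 of 40 and 11 of 58 changed sites were Rbap46-distant. These shares were all below the 26.7% of chromosome 22, but only that of chromosome 21 was below the 13.9% of all sites. Changed H3K9ac sites were also few on chromosomes 13, 4 and 14, where the number of Rbap46 sites per changed site was the highest (39.5, 33.7 and 28.1). On chromosome 16 it was the lowest (6.07).

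**Figure D4:**
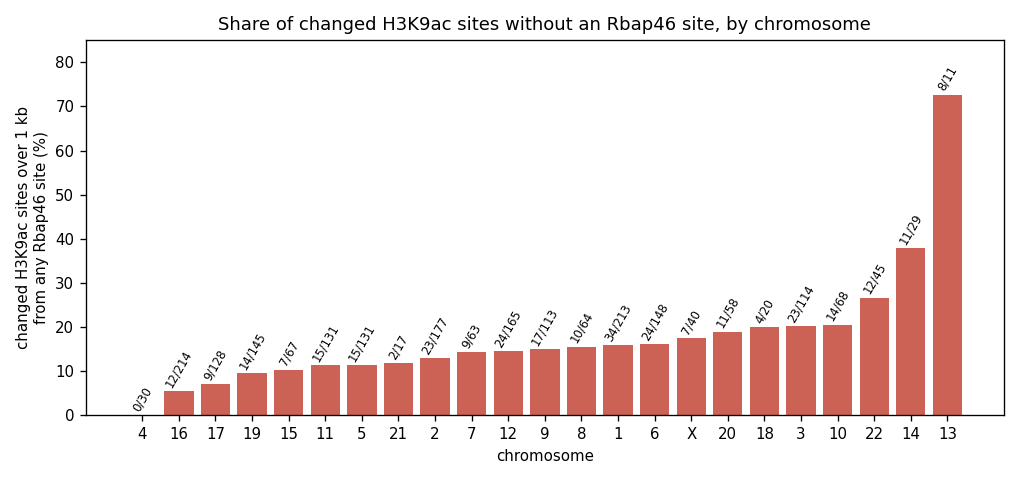
Share of changed H3K9ac sites that were Rbap46-distant (y axis, percent) on each chromosome (x axis, ordered by share); the figures over the bars give Rbap46-distant sites of all changed H3K9ac sites. The share runs from 0 of 30 sites on chromosome 4 to 8 of 11 on chromosome 13.

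Input level was low on some, but not all, of the chromosomes with a high share. The median input level at Rbap46 sites was 5.28 on chromosome 13, 5.30 on chromosome X and 5.42 on chromosome 14, the 3 lowest of the 23 chromosomes, against 5.84 over all Rbap46 sites. Chromosome 22, with 5.74, was not among them. The share was 17.5% on chromosome X, and chromosome 4, without any Rbap46-distant site, had an input level of 5.69. Locally, the median input level at Rbap46 sites within 1 Mb was 5.79 around the 296 Rbap46-distant sites that had any, with quartiles of 5.43 and 6.09. Around Rbap46-near sites it was 5.94, with quartiles of 5.72 and 6.10. At the single nearest Rbap46 site the median input level was 6.49 for overlapping H3K9ac sites and 6.27 for those up to 1 kb away. It lay between 5.34 and 5.87 for the zones beyond 1 kb. Whether lower input, and so fewer reads, kept Rbap46 sites from being called there was not tested.

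The surroundings held fewer Rbap46 sites as well. Between 100 kb and 1 Mb from a site, where the rule does not set the count directly, the median number was 21 around Rbap46-distant sites, with quartiles of 9 and 43. Around Rbap46-near sites it was 36, with quartiles of 19 and 60. Whether these counts are independent of the choice of sites by the 1 kb rule was not tested. The median distance of Rbap46-distant sites to Rbap46 was 25.4 kb, 80 sites lay within 5 kb and 92 lay over 100 kb away. At the nearest Rbap46 site, the median log2 fold over input was 1.18 for overlapping H3K9ac sites. It lay between 1.09 and 1.29 for the zones beyond 1 kb, with no order by distance.

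Of the Rbap46-distant sites, 27 were over 500 kb and 9 over 1 Mb from Rbap46. They fell in 18 stretches of chromosome free of Rbap46 sites, which held 31 changed H3K9ac sites in all. The longest stretch, 6.48 Mb on chromosome 10 (53459790 to 59938856), held 2 sites with differences of -1.32 and -0.86. The next, 6.21 Mb on chromosome 9 (20684557 to 26892351), held 5 sites with levels of 8.87 to 9.43 in shControl cells. None of the 18 stretches held an Rbap46 site below input either.

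The 5 sites farthest from Rbap46 lay well inside the range of level and difference of the other Rbap46-distant sites. A pair on chromosome 3, at 189508455 to 189508955 and 189509890 to 189510390, was 1538 and 1536 kb from Rbap46. Its levels in the authors' deposited table were 8.81 and 8.13 (FDR 0.0804) for the first and 8.64 and 7.83 (FDR 0.0615) for the second. On chromosome 9, the sites at 21995245 to 21995745 and 21993976 to 21994476 were 1311 and 1309 kb away, with 9.43 and 8.71 (FDR 0.0769) and 9.19 and 8.65 (FDR 0.0883) in the authors' deposited table. Farthest on chromosome 7 was 41739005 to 41739505, 1189 kb away, with 8.30 and 7.36 (FDR 0.0627) in the authors' deposited table. Both chromosome 9 sites were above the Rbap46-distant median of 8.71 in shControl cells, and all of the 5 but that on chromosome 7 lost less than the median.

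For the chromosome 9 stretch, the Rbap46 sites within 2 Mb on either side had a median input level of 5.13 (22 sites), compared with 5.74 over chromosome 9. Over the flanks of the 18 stretches this median ran from 5.05 (chromosome 20) to 6.36 (chromosome 6, 148031074 to 149436370). The chromosome 9 value was the second lowest, and the stretch with the 2 largest losses had 5.66. Input inside the stretches is not given, as the table lists only sites of the Rbap46 comparison. Whether the untreated cells of the Rbap46 libraries and the hairpin cells of the H3K9ac libraries carry the same copies of these stretches was not tested.

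**Figure D5:**
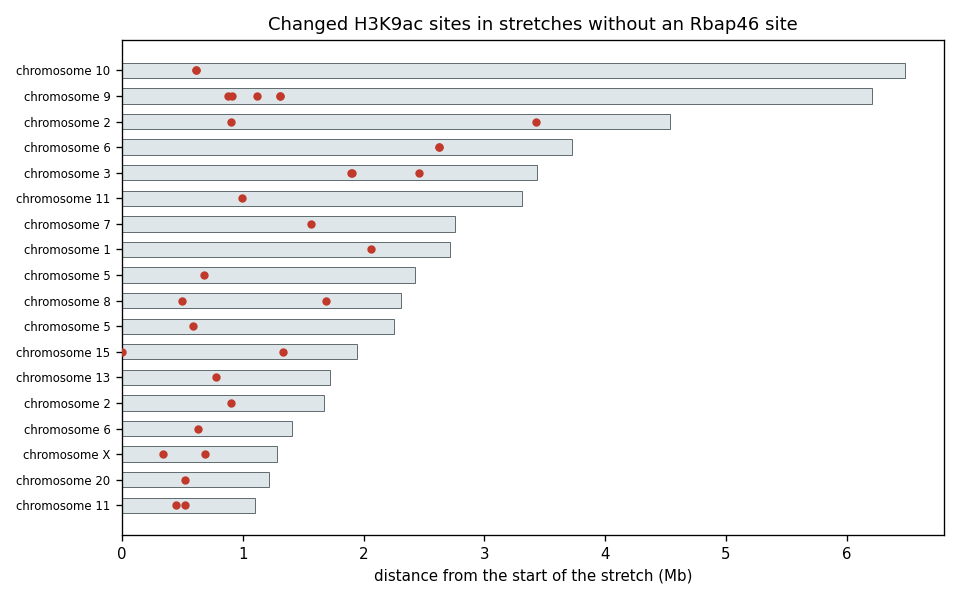
The 18 stretches free of Rbap46 sites that held an Rbap46-distant site over 500 kb from Rbap46, drawn as bars from their start (x axis, Mb), with the chromosome of each at the left and changed H3K9ac sites as red points. The bars run from 1.10 to 6.48 Mb, and the 5 points of the chromosome 9 stretch lie in its first part.

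Many Rbap46-distant sites had another changed site close by. A neighbour within 1 kb was found for 73 of the 305 sites (23.9%) and for 346 of the 1886 Rbap46-near sites (18.3%). Of those 73 neighbours, 60 were Rbap46-distant themselves, and of the 346, 336 were Rbap46-near. Sites so close together lie at similar distances from Rbap46, so the rule itself favours neighbours of 1 kind. When sites up to 10 kb apart were joined into loci, the 305 sites fell in 259 loci. Of these, 196 were single sites, 31 held 2 to 4 sites that were all Rbap46-distant, and 32 held both kinds.

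In the 31 loci of several Rbap46-distant sites the median range of the difference within a locus was 0.18. In the 183 loci of several Rbap46-near sites it was 0.21. Single loci ranged more widely, such as 4 Rbap46-distant sites on chromosome 13, picked with their values known, that ran from -0.87 to -1.74. In 21 of the 31 loci the site of lowest level lost more than the site of highest level, and in 117 of the 183 Rbap46-near loci. In the 32 loci with both kinds, the Rbap46-distant sites had the lower mean shControl level in 22 and the more negative mean difference in 21. The median gaps there, -0.41 in level and -0.12 in difference, had the same sign as those over all sites.

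Chromosome 22 between 46 and 47 Mb was the 1-Mb window with the most Rbap46-distant sites, 7 of its 9 changed sites. From 46474290 to 46477679 it held a row of 5 sites, with shControl levels of 9.63, 9.60, 10.07, 9.70 and 9.97 in order of position in the authors' deposited table. Their shHAT1 levels were 8.86, 8.55, 9.26, 9.04 and 9.19 in the same deposited table, so the differences ran from -0.66 to -1.05. The other sites were that of 11.73 named above and one at 46439992 to 46440492 with 8.72 and 7.80 (FDR 0.0481) in the authors' deposited table. The row was 3.82 to 6.71 kb from Rbap46, so a limit of 10 kb in place of 1 kb would count it as near.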

How the data were processed

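H3K9ac (shControl, shHAT1; 3 libraries each), Rbap46 and input (2 each) were compared through 2 tables of the authors' own comparisons. The other 14 of the 24 libraries were not analysed here. Per the submitters' processing notes, the tools included cutadapt, Bowtie2, SAMtools, Picard, MACS2 and DiffBind, and the build was hg19. The scaling between libraries is not given in the sources used here. The deposited levels and folds are log2 values, per the file headers as in a DiffBind report, and folds equalled the difference of group levels within 0.01. The p-value and FDR are the authors' deposited values.

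The difference was computed as shHAT1 minus shControl. Distance is the number of bases between the edges of 2 sites, 0 for an overlap, and was checked on simulated sites. Numbers of sites tested were inferred from FDR, p and rank. No value per library was used, and depth is unknown, so no test was made: medians, quartiles and counts are descriptions, and p-values quoted are the authors'.

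Sites named are, among Rbap46-distant sites, the 5 of most negative difference, all higher sites, the 3 of lowest FDR, of highest and of lowest level and of largest width, the 5 farthest from Rbap46, those of the fullest 1-Mb window, and 3 on each side of the limit. Sites outside this rule are marked as picked with their values known. The sites, comparisons and lists were chosen with earlier results of these data known. Gene and cell type lists were not used, for lack of an annotation of hg19. Alternatives tried were other limits on distance, FDR and Rbap46 fold, autosomes, 1 site per locus, the smallest width and level quartiles. Computation was in Python 3.11 (pandas 2.3.3, numpy 2.4.6 and scipy 1.17.1), with plots by matplotlib 3.10.9.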

Additional observations from a re-analysis of the deposited data

How the results depend on the processing

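The number of Rbap46-distant sites, 305, became 523 when any gap from Rbap46 counted as distant, 190 with a limit of 10 kb, 114 at an H3K9ac FDR under 0.05 and 792 when Rbap46 sites needed a log2 fold of at least 1; each of these limits adds or removes sites by construction. The difference in median shControl level, -0.66, kept its sign under all 12 alternatives and was smallest at -0.33 with the Rbap46 fold limit and -0.53 among sites of the smallest width. The gap in median change, -0.16, kept its sign under all 13, with -0.07 under the Rbap46 fold limit, -0.11 as the median over level quartiles and -0.19 at an FDR under 0.05. The gap in the share with at least a 2-fold loss, 22.1 percentage points, was 12.4 with the Rbap46 fold limit and 31.6 at an FDR under 0.05. The gap in the share of wider sites, -2.55 points, was -9.21 for any gap and reversed to 0.262 at 5 kb and 2.34 at 10 kb. The gap in the share at an FDR under 0.05, 1.27 points, reversed to -3.42 at 10 kb, -0.668 with the Rbap46 fold limit and -0.373 at an Rbap46 FDR under 0.01. The cause was not tested. Distances between centres and leaving out chromosomes 13 and 14 or the 2 largest losses, chosen after seeing the data, changed no direction of these differences. No paired analysis was possible because only 1 mean per group was at hand, and leaving out a library was not run for the same reason. Comparison with genes was not run.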

Other observations

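Further loci of Rbap46-distant sites are given here, chosen after their values were seen. On chromosome 13, 4 sites within 7.29 kb, from 109917693 to 109924977, lay 349 to 356 kb from Rbap46. In order of position their shControl levels were 10.39, 9.83, 9.48 and 8.29 in the authors' deposited table, and their differences, from the same deposited table, were -0.87, -1.05, -1.29 and -1.74. The weaker the site, the larger was its loss. On chromosome 14, 3 sites between 29234381 and 29243545 had shControl levels of 8.62, 8.59 and 8.49 and differences of -0.92, -1.29 and -1.12 in the authors' deposited table. They lay 2.27 to 5.39 kb from Rbap46.

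From 26 to 28 Mb of chromosome 6, also chosen after its values were seen, 8 of the 44 sites were Rbap46-distant. Their differences ran from -1.04 to -1.30, with a median of -1.12. The 36 Rbap46-near sites there had a median of -1.08 and a range from -1.39 to -0.77. The median shControl levels were 8.55 and 8.82. The medians of the difference were thus closer here than over all chromosomes, where the gap was -0.16; this was not tested.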
